A study of Drosophila melanogaster with 4 samples.

Results

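Chromosome 4 is the smallest autosome of Drosophila melanogaster, and this account covers the regions on it where JHDM1 was enriched in chromatin of adult heads. Members are all rows of chromosome 4 in 3 deposited lists of enriched regions, called clusters here. They number 385 of the 22915 rows of those lists, with 143 of 7836 in ChIP replicate 1, 113 of 7074 in ChIP replicate 2 and 129 of 8005 in the list of the whole series. The assembled chromosome is 1351857 bp long in FlyBase release 5, the build named in the file headers, and all coordinates below are on it.

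The ChIP group and the input group came from wild-type Oregon-R flies of the stage Mixed Adult, grown in population cages, with no transgene or treatment named in the labels. Nuclei were from heads sieved from whole adults, so the cell types of the head were not separated. There were 2 ChIP libraries made with the antibody JHDM1 Q2634 and 2 input libraries, each of which was the background of the ChIP library with its number. Whether separate cages of flies were used for the replicates is not stated in the labels, and the SD between replicates may therefore measure technical variation alone.

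JHDM1, also known as Kdm2 in the fly, is a JmjC-domain histone demethylase, a class of enzyme that removes methyl groups from histone tails. Fly Kdm2 has been described as a member of a Polycomb-group complex that also ubiquitylates histone H2A. Chromosome 4 is known for interspersed genes and repeats, for the heterochromatin protein HP1a along much of its length and for POF, a protein that binds its genes. Its assembled sequence runs from the centromeric side at low coordinates to the telomere at high coordinates. No gene is named below, since the only gene annotation used, Release 6, has another coordinate system than the files.

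Both replicates placed clusters over the same large part of chromosome 4. Clusters of both replicates together covered 557 kb of it, which is 41.2% of its length. A further 10.2% was covered in replicate 1 only and 9.21% in replicate 2 only, and 39.3% lay in clusters of neither. The arms 2L, 3L and 3R served as the comparison. There, both replicates covered 16.0% of the pooled length, with 15.6% on 2L, 15.5% on 3L and 16.8% on 3R, and 74.1% lay in clusters of neither. The doubly covered part was thus 2.57 times as large a share on chromosome 4 as on the 3 arms together. The covered share of single replicates on chromosome 4 was 50.9% ± 0.72 (mean ± SD, n = 2), so the distance to the arms was many times the spread between replicates.

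Of the base pairs clustered on chromosome 4 in replicate 1, 80.1% were also clustered in replicate 2, and of those of replicate 2, 81.7% were also clustered in replicate 1. On 2L, 3L and 3R the same shares were 76.0% and 77.0%. The base-pair Jaccard index, which is the length covered by both divided by the length covered by either, was 0.680 on chromosome 4 and 0.619 on the 3 arms. To see how far an arm varies along itself, 2L, 3L and 3R were divided into 55 adjoining windows of the length of chromosome 4. The doubly covered share in these windows ranged from 2.75% to 25.7%, with a median of 16.4%, and none reached the 41.2% of chromosome 4. Their Jaccard index ranged from 0.332 to 0.720, and 4 of the 55 windows were at or above the 0.680 of chromosome 4. The chromosome therefore stood outside the range of the arms in how much was covered, and inside it in the Jaccard index. The index and the shared parts rise with the covered share even where clusters are placed at random. Replicates 1 and 2 covered 51.5% and 50.4% of chromosome 4, against 21.1% and 20.8% of the arms. No correction was made for this, so these values do not show whether the replicates matched better or worse on chromosome 4.

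Long clusters held much of the doubly covered length. With clusters over 10 kb left out of each list, both replicates covered 10.8% of chromosome 4 and 12.2% of the 3 arms, so that chromosome 4 was the lower, and the Jaccard index was 0.277 on chromosome 4 and 0.509 on the arms. A stretch that is 1 long cluster in one list and several short ones in the other drops out under that filter, since only the short clusters are kept. Within each replicate, clusters of at most 10 kb covered more of chromosome 4 than of the arms, with 30.8% of chromosome 4 against 18.6% of the arms in replicate 1. In replicate 2 they covered 19.1% of chromosome 4 and 17.6% of the arms.

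Coverage was high along most of the chromosome and low at its ends and at 1 internal place. In 11 of the 13 full 100 kb bins, both replicates covered more than 35% of the bin. The highest values were 55.9% in the bin from 200001 to 300000, 53.0% from 300001 to 400000 and 52.9% from 600001 to 700000. The first bin had 17.5% and the bin from 700001 to 800000 had 12.8%. The last, partial bin from 1300001 on had 3.87%, although its single-replicate shares were 14.4% and 16.1%. In that bin the replicates therefore mostly marked different base pairs, and the whole-series list covered 43.6% of it. Among full 100 kb bins, 10 of 13 on chromosome 4 were doubly covered over more than 40% of their length, which is 76.9% (95% Wilson interval 49.7 to 91.8%, counting error only). On 2L, 3L and 3R it was 35 of 754, or 4.64% (3.36 to 6.39%). Bins under 10% numbered 0 of 13 on chromosome 4 and 290 of 754 on the arms. The densest bin of all was on 2L, at 84.6%, so single bins of the arms did exceed the values of chromosome 4.

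**Figure D1:**
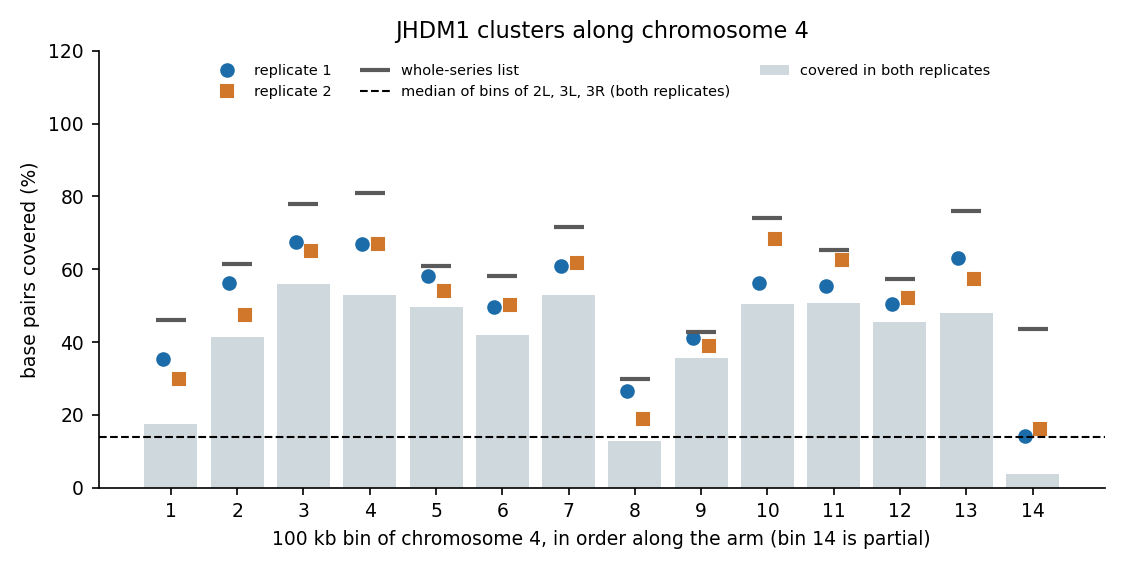
Base pairs of each 100 kb bin of chromosome 4 inside clusters (%, y axis), by bin in order from the centromeric side (x axis). Bars give the part covered in both replicates, points the covered part in replicate 1 and in replicate 2, short lines the whole-series list, and the dashed line the median doubly covered share of the full bins of 2L, 3L and 3R, 13.9%. Bars of all bins but the eighth, at 12.8%, and the partial last one, at 3.87%, stand above that line.

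The replicates differed by at most 12.1 percentage points in any bin of chromosome 4. That largest difference was in the bin from 900001 to 1000000, with 56.3% covered in replicate 1 and 68.4% in replicate 2. Replicate 1 was the more covered in 8 of the 14 bins. The longest piece covered in replicate 1 only was 4.04 kb, from 706988 to 711028, and the longest in replicate 2 only was 4.24 kb, from 69215 to 73449. Differences between the replicates on chromosome 4 were therefore spread over many short pieces and not over whole domains.

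Stretches covered without a break in both replicates reached further on chromosome 4 than on the arms. The longest ran over 30.5 kb, from 1132695 to 1163232. The next 4 spanned 884014 to 906738 (22.7 kb), 456696 to 477457 (20.8 kb), 666670 to 684958 (18.3 kb) and 486105 to 501859 (15.8 kb). The longest such stretch on 2L, 3L and 3R, an area many times the size, was 21.1 kb. Stretches of at least 10 kb numbered 11 on chromosome 4 and held 33.8% of its doubly covered base pairs, whereas the 48 on the 3 arms held 4.87%. The median stretch was of similar length, at 2312 bp on chromosome 4 and 2300 bp on the arms.

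The first cluster from the centromeric side began at 26053 in replicate 1, at 29859 in replicate 2 and at 25676 in the whole-series list. The 25.7 kb before it was the longest stretch of chromosome 4 without a cluster in any of the 3 lists. The next longest were 829810 to 853820 (24.0 kb), 763539 to 787383 (23.8 kb), 530597 to 551972 (21.4 kb) and 1168791 to 1185873 (17.1 kb). The fifth of these lies just past a cluster of 38.6 kb described below. On chromosome 4, 4 stretches of at least 20 kb were free in all lists and 0 reached 50 kb. On 2L, 3L and 3R, 822 were of at least 20 kb, 230 of at least 50 kb, and the longest was 199 kb.

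The median cluster of chromosome 4 was about as long as that of the arms, and the upper part of the length range was longer. The median length was 2812 bp in replicate 1 and 2563 bp in replicate 2, a mean of 2688 bp ± 176 (SD, n = 2), against 2649 bp ± 48.8 on 2L, 3L and 3R. That difference was within the spread of the replicates. It was larger under filters that drop weak or short clusters, with medians of 7255 bp on chromosome 4 and 3762 bp on the arms for clusters in the upper 50% of scores, and of 4106 bp and 3295 bp for clusters of at least 2 kb. The lower quartile was also close, at 1836 bp ± 50.9 on chromosome 4 and 1979 bp ± 49.9 on the arms. The upper quartile was 6889 bp ± 1874 on chromosome 4 and 4217 bp ± 90.3 on the arms, and the 90th percentile was 13680 bp ± 2483 and 6642 bp ± 163. The 90th percentile on chromosome 4 was 11924 bp in replicate 1 and 15435 bp in replicate 2. Across the 55 arm windows it reached at most 8661 bp in replicate 1 and 10529 bp in replicate 2, so chromosome 4 was above each window in both replicates.

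Clusters over 10 kb made up 17 of the 143 of replicate 1 on chromosome 4, or 11.9% (7.56 to 18.2%), and 24 of the 113 of replicate 2, or 21.2% (14.7 to 29.7%). On 2L, 3L and 3R the shares were 3.14% (2.67 to 3.69%) and 4.11% (3.56 to 4.75%). Both replicates thus had more long clusters on chromosome 4 than on the arms, and replicate 2 had the more. Clusters of 3 to 6 kb made up less of chromosome 4, at 22.4% (16.3 to 29.9%) in replicate 1 and 15.9% (10.3 to 23.8%) in replicate 2, against 30.3% (29.0 to 31.7%) and 28.5% (27.2 to 29.9%) on the arms. The intervals of replicate 1 overlap at their edge, and those of replicate 2 do not. Clusters of 2 to 3 kb, the most frequent class of the arms in both replicates, were 22.4% (16.3 to 29.9%) and 24.8% (17.7 to 33.5%) of those on chromosome 4 and 33.1% and 30.6% of those on the arms. The interval of replicate 2 included the share of the arms. Clusters under 2 kb were 30.8% (23.8 to 38.8%) and 31.9% (24.0 to 40.9%) on chromosome 4 and 24.1% and 27.6% on the arms, which lay inside both intervals. Those of 6 to 10 kb were 12.6% and 6.19% on chromosome 4, with 9.33% and 9.24% on the arms and intervals that overlap in each replicate. The class over 10 kb was thus the one whose intervals stayed apart in both replicates. By the looser rule, with the share of the arms outside the interval of chromosome 4, the class of 3 to 6 kb differed in both as well.

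**Figure D2:**
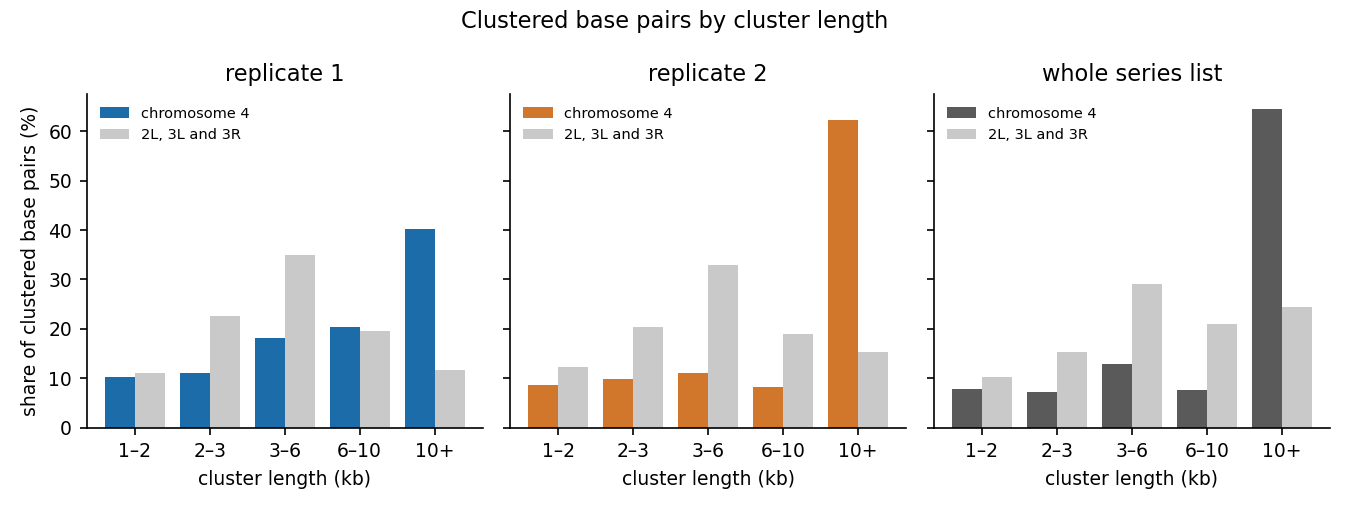
Share of the clustered base pairs (%, y axis) that lies in clusters of each length class (kb, x axis), on chromosome 4 (coloured bars) and on 2L, 3L and 3R together (light bars), for replicate 1, replicate 2 and the whole-series list. Clusters of 10 kb or more held 40.1%, 62.2% and 64.4% of the clustered base pairs of chromosome 4, against 11.8%, 15.4% and 24.4% on the arms.

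Gaps between neighbouring clusters were shorter on chromosome 4. The median gap was 2298 bp in replicate 1 and 2246 bp in replicate 2, a mean of 2272 bp ± 37.1 (SD, n = 2), against 4091 bp ± 250 on the 3 arms. This was 0.556 ± 0.025 of the arms' value (SD, n = 2), a difference far beyond the replicate spread. The distance grew with gap length. At the lower quartile chromosome 4 had 0.687 ± 0.10 of the gap of the arms, at the upper quartile 0.425 ± 0.10 and at the 90th percentile 0.379 ± 0.089. The 90th percentile was 11806 bp and 16853 bp on chromosome 4 in replicates 1 and 2, against 37380 bp and 38106 bp on the arms. Each of the 55 arm windows had a longer 90th percentile than chromosome 4 in both replicates, whereas 2 windows had a median gap as short or shorter in each replicate.

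Long gaps were rare on chromosome 4. Gaps over 20 kb numbered 4 of 142 in replicate 1, or 2.82% (1.10 to 7.02%), and 7 of 112 in replicate 2, or 6.25% (3.06 to 12.3%). On 2L, 3L and 3R they were 19.5% (18.4 to 20.7%) and 19.8% (18.6 to 21.0%). Those long gaps held 71.5% and 73.3% of all gap base pairs on the arms, but 17.0% and 28.2% on chromosome 4. The longest gap on chromosome 4 was 32.4 kb in replicate 1, from 763539 to 795890, and 43.2 kb in replicate 2, from 744179 to 787383. These 2 gaps overlap, and both lie in the sparsely covered bin from 700001 to 800000. Gaps under 1 kb were 33.1% (25.9 to 41.2%) of those on chromosome 4 in replicate 1 and 28.6% (21.0 to 37.5%) in replicate 2, against 21.6% (20.4 to 22.8%) and 23.4% (22.2 to 24.7%) on the arms. In replicate 2 the interval of chromosome 4 included the share of the arms.

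**Figure D3:**
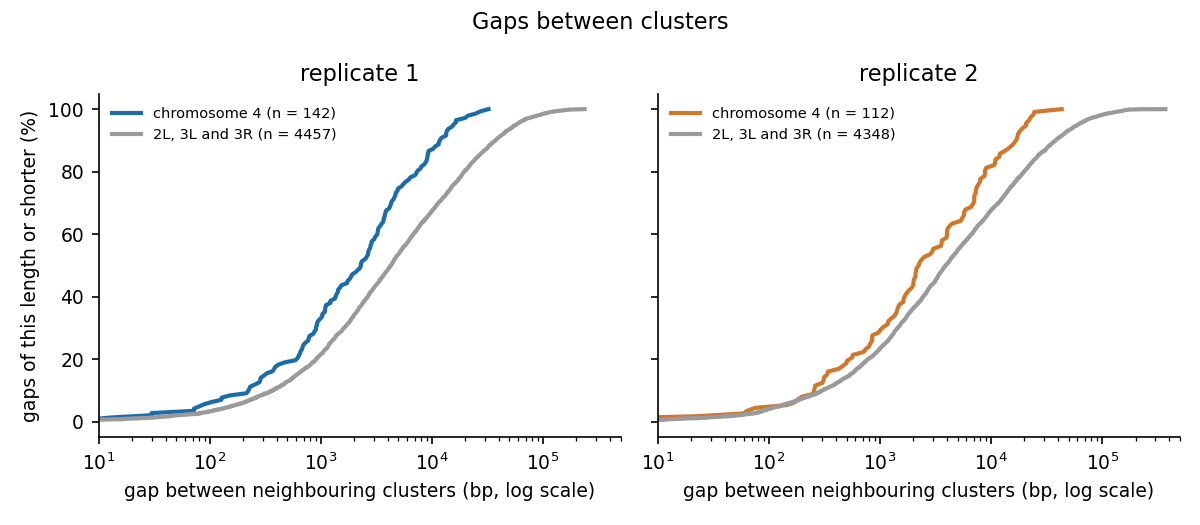
Cumulative share of gaps (%, y axis) by gap length in bp on a log axis (x axis), for replicate 1 and replicate 2, with chromosome 4 in colour and 2L, 3L and 3R in grey. The curves of chromosome 4 lie left of those of the arms and end at 32.4 kb in replicate 1 and 43.2 kb in replicate 2, while those of the arms run on to 237 kb and 371 kb.

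The close spacing went with clusters that were joined in one list and split in another. Of the 113 clusters of replicate 2 on chromosome 4, 31 touched at least 2 clusters of replicate 1, which is 27.4% (20.1 to 36.3%). On 2L, 3L and 3R it was 574 of 4351, or 13.2% (12.2 to 14.2%). Across the 55 arm windows the share ranged from 4.76% to 21.4%, below chromosome 4 in each. In the other direction, 26 of the 143 clusters of replicate 1 on chromosome 4 touched at least 2 of replicate 2, or 18.2% (12.7 to 25.3%), against 13.5% (12.5 to 14.6%) on the arms, a share inside that interval. The share of joining clusters on chromosome 4 was thus above that of the arms and of each window where replicate 2 was the joining list. In the other direction it was nearer to that of the arms. The intervals hold counting error only and neighbouring clusters are not independent, so neither difference was tested. The joining clusters of replicate 2 were long, with a median of 11423 bp on chromosome 4, and those that touched exactly 1 cluster of replicate 1 had a median of 2316 bp. With clusters over 10 kb left out of replicate 2, 11 joining clusters of chromosome 4 remained, or 12.4% of its clusters, against 10.7% on the arms.

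Clusters of the replicates that touch each other, directly or through others, formed 66 linked groups on chromosome 4. Of these, 34 were simple pairs of 1 cluster each, or 51.5% (39.7 to 63.2%), against 72.2% (70.6 to 73.8%) on the 3 arms. In 11 groups several clusters of replicate 1 met 1 of replicate 2, in 6 groups 1 cluster of replicate 1 met several of replicate 2, and in 15 groups there were several on both sides. The largest group had 9 clusters. In the 34 simple pairs the cluster edges of the replicates lay a median of 465 bp apart, against 273 bp in 2156 such pairs on the arms. In 23 of the 34 pairs the cluster of replicate 1 was the shorter, with a median difference of −318 bp (replicate 1 minus replicate 2). On the arms replicate 1 was the shorter in 44.4% of pairs, and the median difference was 73.0 bp. The share of simple pairs depends on cluster length, gap length and covered share, which differed between chromosome 4 and the arms. No correction was made for these, so that share does not show whether the replicates matched worse on chromosome 4. The edge and length differences rest on the 34 pairs and were not tested.

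Most of what separated split clusters on chromosome 4 was short. Of the 142 gaps of replicate 1, 42 lay wholly inside a cluster of replicate 2, which is 29.6% (22.7 to 37.5%), against 15.9% (14.9 to 17.0%) on the arms. The bridged gaps on chromosome 4 had a median of 641 bp and a maximum of 3657 bp, whereas gaps that were not bridged had a median of 3713 bp. On the arms bridged gaps were shorter still, with a median of 556 bp. Gaps were shorter on chromosome 4, so the shares were also taken by gap length. Among gaps under 1 kb, 32 of 47 were bridged on chromosome 4, or 68.1% (53.8 to 79.6%), and 51.8% (48.7 to 55.0%) on the arms, with intervals that overlap. The share of the arms itself lay just below the interval of chromosome 4. Among gaps of 1 kb or more it was 10 of 95 on chromosome 4, or 10.5% (5.82 to 18.3%), and 6.09% (5.35 to 6.93%) on the arms, whose intervals overlap too. Of the 112 gaps of replicate 2, 30 lay inside a cluster of replicate 1, or 26.8% (19.5 to 35.7%), against 16.7% (15.6 to 17.8%) on the arms. The median of these bridged gaps was 823 bp on chromosome 4 and 435.5 bp on the arms. Among those under 1 kb it was 18 of 32 on chromosome 4, or 56.2% (39.3 to 71.8%), and 54.3% (51.2 to 57.3%) on the arms. Among those of 1 kb or more it was 12 of 80 on chromosome 4, or 15.0% (8.79 to 24.4%), and 5.19% (4.49 to 6.00%) on the arms. The excess in replicate 2 was thus seen among the longer gaps.

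A cluster of replicate 2 from 879603 to 913614 (34.0 kb) touched the most clusters of replicate 1 on chromosome 4. Those 4 clusters ran from 879753 to 883365, 884014 to 906738, 910396 to 912036 and 912961 to 917380, the last of them beyond the end of the replicate 2 cluster. The reverse case was a cluster of replicate 1 from 352984 to 365168 (12.2 kb), where replicate 2 had 3 short clusters and the beginning of another that ran on to 387834. The whole-series list joined that place with its left neighbour, in a cluster from 347878 to 365642 that touched 5 clusters of replicate 2. Its cluster from 278146 to 303818 (25.7 kb) touched 5 clusters of replicate 1, from 278616 to 282256, 282329 to 292154, 292283 to 294005, 294086 to 297943 and 298232 to 303497. The same stretch was also divided in replicate 2, at other places, as the map of joined clusters shows.

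**Figure D4:**
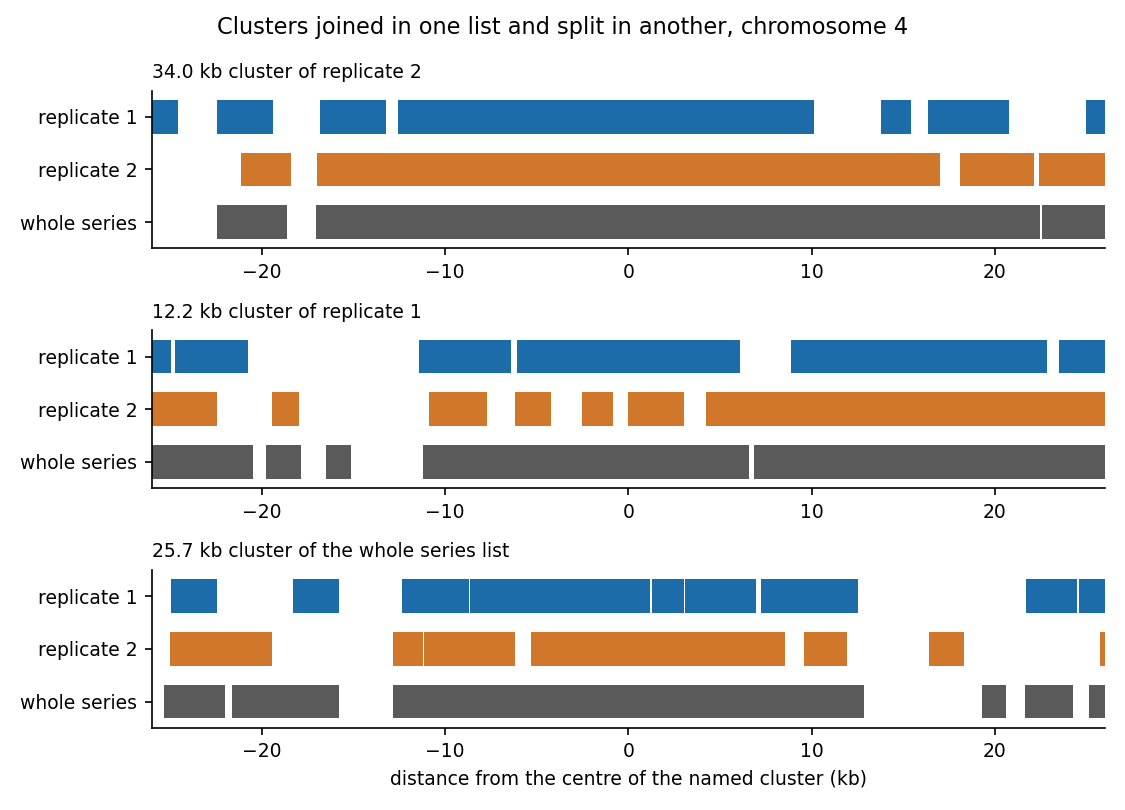
Clusters of replicate 1, replicate 2 and the whole-series list (rows) around 3 clusters of chromosome 4, each of which touched the most clusters of 1 other list among those of its own list (replicate 2 on replicate 1, replicate 1 on replicate 2, and whole series on replicate 1), by distance from the centre of the named cluster in kb (x axis). From top to bottom these are the 34.0 kb cluster of replicate 2, the 12.2 kb cluster of replicate 1 and the 25.7 kb cluster of the whole-series list; the breaks in the other lists are mostly narrow, and those of about 100 bp are barely visible at this scale.

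The whole-series list covered 61.0% of chromosome 4 and 24.8% of the 3 arms. It held 99.9% of the base pairs that both replicates covered on chromosome 4, 81.4% of those covered in replicate 1 only and 77.8% of those in replicate 2 only. On the arms these shares were 99.9%, 77.2% and 69.9%. Of its own base pairs, 7.10% on chromosome 4 lay in neither replicate, against 5.94% on the arms. Of its 129 clusters on chromosome 4, 69 touched both replicates, 32 replicate 1 only, 12 replicate 2 only and 16 neither. Taken by replicate, 28 of the 129 touched no cluster of replicate 1, against 845 of 4623 on the arms. No cluster of replicate 2 was touched by 48 of the 129, against 1057 of 4623 on the arms. Both shares were larger on chromosome 4, that for replicate 2 by the greater margin, and no interval was computed for them. Those touching both had a median length of 5687 bp, and those touching neither had one of 1388 bp and a maximum of 1773 bp. This list was made from the same libraries, so its overlap with them is no independent evidence.

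The 6 longest clusters of this list that touched both replicates were filled by both. The longest, from 456260 to 508756, spanned 52.5 kb, of which 95.7% was covered in replicate 1 by 4 clusters and 97.2% in replicate 2 by 3. The cluster from 879540 to 919062 (39.5 kb) was covered at 82.0% in replicate 1 and 96.3% in replicate 2. That from 1130232 to 1168790 (38.6 kb) was covered at 98.2% by 2 clusters of replicate 1 and at 93.5% by 3 of replicate 2. Both replicates had a cluster of over 30 kb in it. Its length was 32991 bp in replicate 1, and in replicate 2 it was 32412 bp. The other 3 spanned 576616 to 611170 (34.6 kb), 1046294 to 1075640 (29.3 kb) and 665060 to 692998 (27.9 kb), with 91.2%, 92.9% and 96.3% covered in both replicates. Only the last of the 6 was a single cluster in a replicate, from 665734 to 692949 in replicate 2.

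Scores on chromosome 4 did not reach the top of any list. The score is the authors' own value for each cluster, and no source used here gives its unit, so it was read as a rank within a list. The highest score on chromosome 4 was 2.03 in replicate 1, rank 436 of 7836, 1.77 in replicate 2, rank 557 of 7074, and 1.87 in the whole-series list, rank 370 of 8005. Longer clusters had higher scores, with a Spearman's rho of 0.68 over 143 clusters of chromosome 4 in replicate 1 and 0.78 over 113 in replicate 2. On the arms rho was 0.60 and 0.72. These run over clusters of 1 library each and carry no p-value.

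Because scores rose with length, each cluster of chromosome 4 was set against the clusters of 2L, 3L and 3R in the same list and the same 1 kb length class. Its percentile is the share of those arm clusters with a lower score, so a value of 50 is the middle of the class. A class needed at least 5 arm clusters. This left 138 of 143 clusters in replicate 1, 104 of 113 in replicate 2 and 122 of 129 in the whole-series list, and the clusters left without such a class were the longest ones. The median percentile was 60.0 in replicate 1 and 44.4 in replicate 2, a mean of 52.2 ± 11.02 (SD, n = 2). The replicates lay on opposite sides of the middle, so no shift of the scores of chromosome 4 was seen beyond the spread between them. In replicate 1, 63.0% (54.7 to 70.6%) of the clusters were above the middle, and in replicate 2, 40.4% (31.5 to 50.0%). The whole-series list gave 52.8. Across the arm windows the median percentile ranged from 32.3 to 82.9 in replicate 1 and from 38.2 to 69.1 in replicate 2, with chromosome 4 inside both ranges. Against 2L, 3L and 3R one at a time, it was 59.3, 57.2 and 59.1 in replicate 1 and 44.7, 45.0 and 44.4 in replicate 2, so the arm chosen made little difference.

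By length, the shortest clusters stood above the middle in all 3 lists. Clusters of chromosome 4 under 2 kb had a median percentile of 69.1 (n = 44) in replicate 1, 63.6 (n = 36) in replicate 2 and 73.4 (n = 45) in the whole-series list, and 31, 24 and 33 of them were above the middle. The mean of the replicates was 66.3 ± 3.87 (SD, n = 2). In the arm windows 3 of 55 in replicate 1 and 8 of 55 in replicate 2 had a value as high or higher, so windows of the arms did reach it. Clusters of 3 to 6 kb gave the largest disagreement, with a median percentile of 56.2 (n = 32) in replicate 1 and 18.0 (n = 18) in replicate 2. In replicate 2, 2 of those 18 were above the middle, and each of the 55 arm windows had a higher median, the lowest being 30.3. The whole-series list gave 20.3 (n = 27). For clusters of 10 kb or more the medians were 62.5, 44.4 and 78.4, over the 12, 15 and 18 clusters whose class could be filled.

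**Figure D5:**
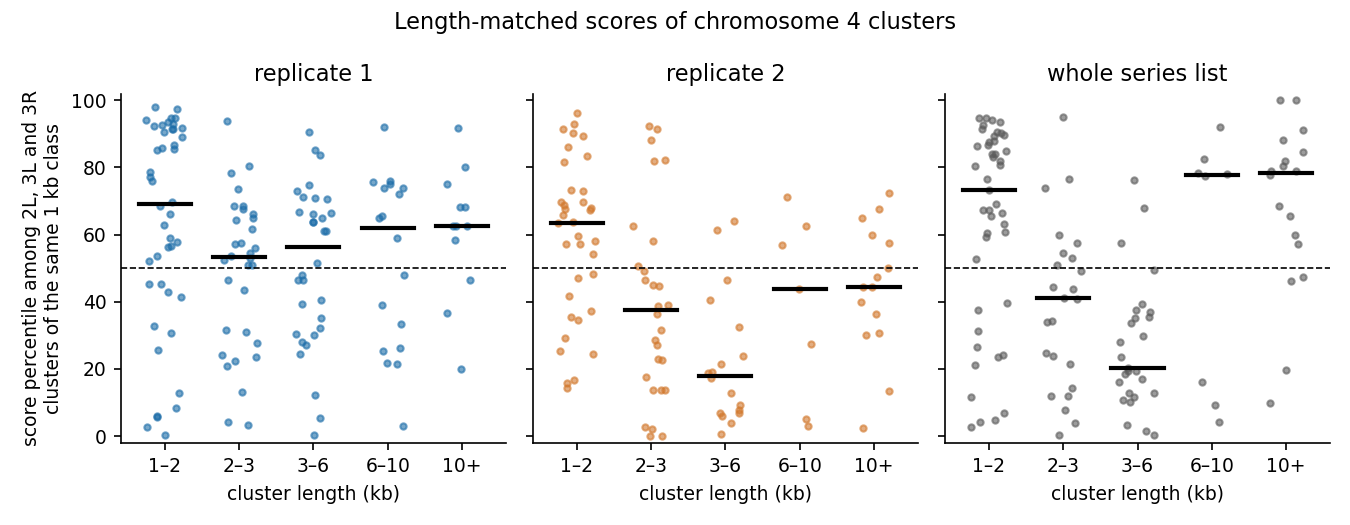
Score percentile of each chromosome 4 cluster among the clusters of 2L, 3L and 3R of the same list and 1 kb length class (y axis, percent with a lower score), by cluster length in kb (x axis), for replicate 1, replicate 2 and the whole-series list. Points are clusters, spread sideways at random within a class, black lines are medians and the dashed line is the middle of the class; clusters under 2 kb have medians of 69.1, 63.6 and 73.4, and those of 3 to 6 kb have 56.2, 18.0 and 20.3.

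Clusters of chromosome 4 found in 1 replicate alone were short and had high scores for their length. In replicate 1, 35 of 143 touched no cluster of replicate 2, or 24.5% (18.2 to 32.1%), against 17.1% (16.0 to 18.2%) on the arms. In replicate 2, 17 of 113 touched none of replicate 1, or 15.0% (9.61 to 22.8%), against 14.8% (13.8 to 15.9%). The longest of them had 3829 bp in replicate 1 and 2492 bp in replicate 2. Among clusters of chromosome 4 under 2 kb, the 20 of replicate 1 that replicate 2 lacked had a median percentile of 88.4, and the 24 that touched replicate 2 had 56.5. In replicate 2 the values were 70.9 (n = 12) and 57.7 (n = 24). The arms showed the same order, with 66.3 for clusters under 2 kb found in replicate 1 alone and 36.8 for those touching replicate 2, and with 69.4 and 37.3 in replicate 2. Among clusters under 2 kb, a high score within the length class therefore went with absence from the other replicate, in the same direction on chromosome 4 and on the arms. The contrast was smallest in replicate 2 on chromosome 4. There, 9 of the 12 clusters found in it alone and 15 of the 24 others were above the middle. Length still varies inside that class, and the value of replicate 2 on chromosome 4 rests on 12 clusters.

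Among whole-series clusters that touched both replicates, the 4 that scored highest included 2 of the longest, from 1130232 to 1168790 (score 1.58) and from 576616 to 611170 (1.52). The highest, from 444096 to 446726 (score 1.87), was 2631 bp long. Its counterparts were 1 cluster in each replicate, with a score of 2.00, second on chromosome 4 in replicate 1, and of 1.77, first in replicate 2. The other, from 105694 to 112196 (score 1.65), was matched in replicate 1 by 1 cluster with the highest score of the chromosome, 2.03. In replicate 2, 2 clusters covered 71.0% of it, the better of them in rank 8 with a score of 1.57. These clusters were chosen by score in a list made from the same libraries, so their ranks in the replicates are given as a description.

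No p-value is given, because sign flips over 2 libraries allow no two-sided p below 0.5. Clusters of 1 library are not replicates of each other, and no depth of sequencing is known for either library.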

How the data were processed

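The data are ChIP-seq of JHDM1 in nuclei of adult fly heads. Reads were aligned with Bowtie 0.12.7, per the submitters' processing notes. The enrichment caller, its thresholds and how the whole-series list was built are not given in the sources used here. Each deposited list gives the start and end of a cluster and the score that the authors assigned, of unknown unit, per the file headers in coordinates of FlyBase release 5. No file of the 2 input libraries was used, and read depth is unknown. Samples were grouped by their titles. Covered base pairs, gaps, overlaps of at least 1 bp and length-matched score percentiles were computed from the deposited lists with matplotlib 3.10.9, numpy 2.4.6, scipy 1.17.1 and pandas 2.3.3 in Python 3.11.15. Gaps under the start of the first or past the last cluster of an arm were not counted. Clusters past an arm's end were trimmed to it. The code was tested on the 143 clusters of replicate 1 on chromosome 4, some joined on purpose, and on simulated scores. It recovered 7 of 7 planted values exactly, although some of these were worked out with functions of the same code. The 95% Wilson intervals take each cluster as independent of its neighbours and hold no error but that of counting. Arm windows held the clusters that lay wholly inside them. Clusters were named by a rule on length, score, unbroken coverage and joining. The members, measures and rule were chosen with earlier results of these data known. Alternatives changed the list, the joining distance, the length class, the minimum overlap, or a filter on score or length. No gene or sequence is given, because no genome of release 5 was used here.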

Additional observations from a re-analysis of the deposited data

How the results depend on the processing

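Of 41 alternative values, 18 stayed within the spread set for their measure and 23 moved beyond it; 5 of the alternatives were added after seeing the data. The spread was the SD of the 2 replicates, and for the doubly covered share and the Jaccard index, which have no replicates, the SD of the replicates' covered shares and of their shared parts. Counts were held to a factor of 1.5. With 2 replicates, each value always lies within their SD of the mean. The settings with 1 replicate left out could therefore not move for length, gap and percentile. The percentile had a wide spread of 11.02, and all its alternatives stayed within it. The tally is thus no measure of how robust the results are. The doubly covered share of chromosome 4 was 48.4% and 49.5%, and the Jaccard index 0.767 and 0.787, with the whole-series list in place of replicate 1 or of replicate 2. They were 28.7% and 0.587 for clusters in the upper 50% of scores of their list (8.26% and 0.443 on 2L, 3L and 3R), 10.8% and 0.277 without clusters over 10 kb (12.2% and 0.509), and 43.0% and 0.701 with clusters less than 1 kb apart joined (16.8% and 0.637). With the whole-series list in place of a replicate, the arms had 19.4% and 19.9%, and 0.739 and 0.769. Chromosome 4 was thus above the arms in each of these but that without clusters over 10 kb. The whole-series list was made from the same libraries, so its overlap with a replicate is no independent evidence. The Jaccard index rises with the covered share, for which no correction was made. Its median length was 2563 to 2812 bp and its median gap 2246 to 2298 bp with 1 replicate left out. Median length and gap were 7255 and 8661 bp above the median score (3762 and 15113 bp on the arms), 3013 and 3611 bp with clusters less than 500 bp apart joined (2877 and 5694 bp), 3440 and 4618 bp at 1 kb (3072 and 7169 bp) and 4106 and 4116 bp for clusters of at least 2 kb (3295 and 6178 bp). The whole-series list had a median gap of 2074 bp (3715 bp). The joining clusters of replicate 2 numbered 19 with at least 50% of each touched cluster inside, 19 above the median score, 20 after joining at 500 bp and 11 at up to 10 kb. Their shares of the clusters were 16.8%, 43.2%, 21.7% and 12.4% on chromosome 4, against 7.17%, 4.64%, 10.5% and 10.7% on the arms. Chromosome 4 was well above the arms in the settings but the last. At up to 10 kb, with 11 joining clusters, it was close to them. The length-matched percentile was 44.4 to 60.0 with 1 replicate left out, which spans the middle, and 49.8 to 55.1 under the other settings. The cause of these changes was not tested. No paired analysis was possible because neither input library has a cluster list of its own among the values used. Unknown read depth limits how many weak clusters each list could hold.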
